A study of Mus musculus with 6 samples.

Results

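The IL6 family of cytokines and receptors was described here in mouse mammary luminal progenitors from *Robo1+/+* and *Robo1-/-* mice. Its 10 members were selected by name from the deposited expression values: the cytokines *Il6*, *Il11*, *Lif*, *Osm* and *Ctf1*, and the receptors *Il6ra*, *Il11ra1*, *Lifr*, *Osmr* and *Il6st*. They were selected on the basis of earlier results from these same libraries, in which *Il11* was lower in *Robo1-/-* cells, so the genotype differences of its members are given as a description and carry no p-value. Of the 10 members, 9 had a row among the 18537 known-gene clusters, and 8 passed the filter on low reads. *Osm* was not analysed here, and *Il6* had too few reads to pass.

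All cells were sorted from mammary glands of adult nulliparous mice by flow cytometry, as cells that were negative for lineage markers and CD24lo, CD29+ and CD61+. Both genotypes came from crosses of *Robo1+/-* mice. The knockout allele (Robo1tm1Matl) was carried in the germline, and so in all tissues of *Robo1-/-* mice and not in the sorted cells alone. Poly(A)+ RNA was sequenced in 6 libraries, each from the pooled cells of 2 animals: gh03, gh09 and gh15 from *Robo1+/+* mice, and gh06, gh12 and gh18 from their *Robo1-/-* littermates. The comparison asks what the loss of *Robo1*, which encodes a receptor for SLIT proteins, changed in these progenitors before pregnancy.

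IL6-family cytokines share the signaling receptor gp130, the product of *Il6st*. IL6 and IL11 first bind a receptor chain of their own, IL6RA or IL11RA1, and then signal through a pair of gp130 chains. LIF and CTF1 signal through LIFR joined to gp130, and OSM in the mouse through OSMR joined to gp130. The receptors activate JAK kinases and, above all, STAT3, and SOCS3 closes the loop as an inhibitor that binds gp130. In the mammary gland, LIF acting through STAT3 is best known for starting cell death and remodelling when milk removal stops.

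The cytokine genes are the members whose promoters are shown, because 3 of the 4 cytokines measured carry the same short motif there. The motif TGANTCA is the site that dimers of FOS and JUN proteins (AP-1) are known to bind. The 250 bases before an annotated transcription start are printed 5′ to 3′ on the strand of the gene, with the match in capitals. They were taken from RefSeq annotation on GRCm38.p6, a later build than the one on which the reads were mapped. The *Il6* sequence is chr5:30012864-30013113 on the plus strand, the *Il11* sequence is chr7:4778142-4778391 on the minus strand, and the *Lif* sequence is chr11:4257318-4257567 on the plus strand. *Il11* has a further annotated start 4716 bases upstream, whose window holds no match.
Il6: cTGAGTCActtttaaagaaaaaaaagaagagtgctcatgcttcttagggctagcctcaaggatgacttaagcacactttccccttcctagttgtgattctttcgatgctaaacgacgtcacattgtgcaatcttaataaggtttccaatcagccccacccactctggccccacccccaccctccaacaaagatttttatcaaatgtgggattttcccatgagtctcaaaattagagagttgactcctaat
Il11: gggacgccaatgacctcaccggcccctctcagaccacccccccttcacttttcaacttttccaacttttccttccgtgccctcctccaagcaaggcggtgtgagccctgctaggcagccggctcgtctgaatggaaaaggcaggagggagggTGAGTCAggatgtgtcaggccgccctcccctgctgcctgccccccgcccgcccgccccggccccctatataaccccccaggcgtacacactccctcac
Lif: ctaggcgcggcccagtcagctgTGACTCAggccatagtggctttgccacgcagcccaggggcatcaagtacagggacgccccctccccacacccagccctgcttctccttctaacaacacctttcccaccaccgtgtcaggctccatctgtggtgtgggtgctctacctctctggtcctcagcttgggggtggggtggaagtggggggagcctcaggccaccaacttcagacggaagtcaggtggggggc

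The match starts at position -249 in *Il6*, at -98 in *Il11* and at -228 in *Lif*, counted from the start site. Windows from 250 bases before to 50 bases after the start were searched on both strands for all 9 members with a promoter entry, in 12 windows. *Osmr* held the only other AP-1 match, at position 4 after the start, which made 4 of the 12 windows, in 4 of the 9 members. Of all 32851 mouse promoter windows of that length, 7.81% held the motif. No window of a member held a cyclic AMP response element (TGACGTCA, 1.79% of all windows), a STAT site of the form TTCNNNGAA (8.30%) or a TATAAA box (13.6%). A match is a string of letters and was not tested for binding, and the absence of one says nothing about the factor.

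The libraries held between 9727191 and 17433868 recovered reads. *Robo1*, the targeted gene, had normalized read counts of 289, 574 and 541 in *Robo1+/+* libraries gh03, gh09 and gh15, and of 130, 214 and 177 in *Robo1-/-* libraries gh06, gh12 and gh18. Transcript of the targeted gene thus remained, with the *Robo1-/-* mean at 37.1% of the *Robo1+/+* mean. All 9 luminal progenitor markers were present in every library, among them *Kit* at 4209 to 5644, but *Aldh1a3* (1972) and *Ltf* (5244) were lowest in gh03 and *Krt8* (11182) in gh18. *Csn3* was the 1 marker of that list without overlap, at 7755 to 9771 in *Robo1+/+* and 11376 to 19142 in *Robo1-/-* libraries. The 8 hormone-sensing luminal markers summed to 34545 to 48101 in *Robo1+/+* and 48901 to 58696 in *Robo1-/-* libraries. The 8 basal markers summed to 573 to 1883 and 773 to 1335, highest in gh03, and the 6 fibroblast markers to 704 to 832 and 307 to 1039. Of the 8 leukocyte markers 6 had a row, with sums of 120 to 161 and 99.2 to 123 that were mostly *Cd68*, while *Ptprc* did not exceed 1.46. The 4 endothelial markers with a row summed to 90.7 at most, and the 1 adipocyte marker with a row did not exceed 3.92. Library gh18 stood apart. For each gene, the log2 value of a library was set against the average of the remaining 5. This difference, the deviation, fell in gh18 with the GC content of the transcript. Spearman's rho was -0.81 across 12542 genes, which are not independent replicates. The other 5 libraries gave 0.17 to 0.60, but the average that each was set against included gh18. The tenth of genes lowest in GC lay at a median log2 deviation of 0.92 in gh18, and the tenth highest in GC at -2.28. Members are therefore also given with gh18 left out and after a correction for GC content.

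*Il11*, the cytokine that drives STAT3 through IL11RA1, was, in the values as deposited, the fitted member with the largest difference between genotypes. It is kgCluster21878, on chromosome 7 of NCBI37/mm9 from 4724669 to 4734460 on the minus strand. Its normalized read counts were 34.4, 30.6 and 31.0 in gh03, gh09 and gh15, and 13.8, 11.9 and 16.1 in gh06, gh12 and gh18. The 3 *Robo1-/-* values all lay below the 3 *Robo1+/+* values. The *Robo1+/+* mean was 32.0 ± 2.08 (SD, n = 3) and the *Robo1-/-* mean 13.9 ± 2.07 (SD, n = 3), which is 43.6% of it. These values rest on 27, 39 and 33 reads against 12, 13 and 11. In the fit across all genes the log2 fold change, *Robo1-/-* minus *Robo1+/+*, was -1.15 with a standard error of 0.35. In bulk samples such as these, fewer cells of a type and less RNA per cell cannot be told apart.

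How far *Il11* differed depended on whether the GC correction was made with library gh18 included. The *Il11* transcript has a GC content of 57.7%, towards the high end, where gh18 tended to be low, and yet its value there was the highest of the 3 *Robo1-/-* libraries. After the GC correction the log2 values were 4.90, 4.58 and 4.65 in gh03, gh09 and gh15, and 3.51, 3.53 and 5.54 in gh06, gh12 and gh18, so that gh18 became the highest of all and the genotypes overlapped. The corrected log2 fold change was -0.52 with a standard error of 0.60. With gh18 left out the log2 fold change was -1.25 without the correction and -1.19 with it. Without gh12, the weakest result of leaving out any 1 library, it was -1.05. The part of GC content in the *Il11* value of gh18 was not tested further.

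*Il6*, the founding cytokine of the family, is kgCluster18723 on chromosome 5 from 30339701 to 30346508. Its normalized read counts were 11.5, 3.92 and 3.75 in gh03, gh09 and gh15, from 9, 5 and 4 reads, and 1.15, 0.92 and 0 in gh06, gh12 and gh18, from 1, 1 and 0 reads. The genotypes did not overlap, but each *Robo1-/-* library held fewer than the 3 reads taken as the smallest number detected. Summed over libraries, 18 reads stood against 2, a ratio of *Robo1+/+* to *Robo1-/-* of 7.61 per unit of depth with an exact 95% interval of 1.82 to 67.7. Library gh03 gave 9 of the 18 reads, and without it the ratio was 5.08 with an interval of 1.05 to 48.4. Both intervals cover counting error only: they pool the reads of a genotype and leave out the spread between libraries. Because the family was chosen with this contrast in view, neither interval is a test of genotype. In gh18, 3 reads would correspond to a normalized value of 4.38, more than the values of gh09 and gh15, so a level like theirs was not detectable there.

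*Lif* was the most abundant member, and its values overlapped between genotypes. Its cluster, kgCluster2899, lies on chromosome 11 from 4157560 to 4172517. The normalized read counts were 5825, 9387 and 11110 in gh03, gh09 and gh15, and 8792, 10566 and 6677 in gh06, gh12 and gh18. Both the lowest and the highest value came from *Robo1+/+* libraries. Its log2 fold change was 0.01 with a standard error of 0.31, and it ran from -0.26 without gh03 to 0.21 without gh15. It was 0.19 after the GC correction and 0.19 without gh18. Among the 4 cytokines measured, *Lif* took 93.6% to 96.8% of the summed level per kilobase in every library, with a median of 96.2%.

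*Ctf1*, which encodes cardiotrophin 1, is kgCluster24137 on chromosome 7 from 134856250 to 134861699. Its normalized read counts were 73.8, 83.9 and 80.7 in gh03, gh09 and gh15, and 86.3, 96.2 and 115 in gh06, gh12 and gh18. All 3 *Robo1-/-* values were higher, although gh06 exceeded gh09 by little. The log2 fold change was 0.31 with a standard error of 0.29, and 0.20 without gh18. After the GC correction it was 0.75 with a standard error of 0.45, and 0.23 when gh18 was also left out. The corrected log2 value of gh18 was 7.87, beside 6.07 to 6.44 in the other libraries. The exons of *Ctf1* overlap those of *Ctf2*, whose own normalized read counts lay between 0.78 and 5.09. The use of strand in counting is not given in the sources used here, so reads of the overlap cannot be assigned to either gene.

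**Figure D1:**
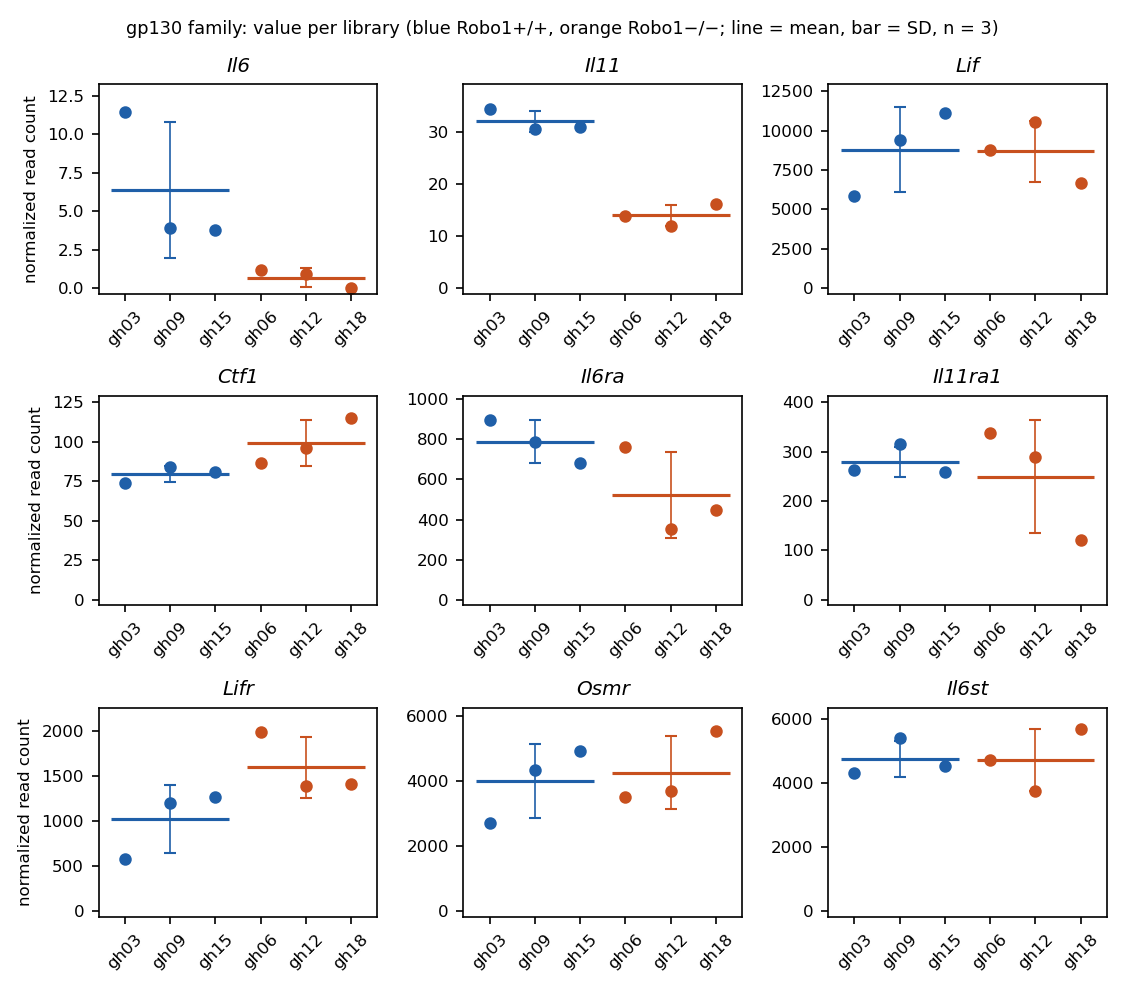
Normalized read count (vertical axis, linear) of the 9 measured members in each of the 6 libraries, with blue points for *Robo1+/+* and orange points for *Robo1-/-*, a line at the mean and a bar of 1 SD (n = 3). *Il11* and *Il6* were lower in every *Robo1-/-* library, *Ctf1* and *Lifr* were higher, and the other 5 members overlapped.

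Among the receptors, *Lifr* was higher in *Robo1-/-* libraries. This chain joins gp130 to bind LIF and CTF1. It is kgCluster8069, on chromosome 15 from 7079559 to 7147489, and its normalized read counts were 585, 1202 and 1274 in gh03, gh09 and gh15, and 1988, 1396 and 1411 in gh06, gh12 and gh18. The genotypes did not overlap, with gh03 far below the others and gh06 far above. A log2 fold change of 0.71 was fitted, with a standard error of 0.35. Without gh03 it was 0.35, and after the GC correction it was 0.47 and the genotypes overlapped. The summed hormone-sensing markers given above were likewise higher in all 3 *Robo1-/-* libraries and lowest in gh03. *Prlr*, at 20097 to 37136 the largest part of that sum, overlapped between genotypes, as did all of the 8 but *Pgr*, and the fold changes of *Cited1* and *Tnfsf11* were negative. Their part in the *Lifr* difference was not tested.

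*Il6ra*, the chain particular to IL6, is kgCluster16151 on chromosome 3 from 89673246 to 89717084. Its normalized read counts were 894, 788 and 680 in gh03, gh09 and gh15, and 764, 352 and 449 in gh06, gh12 and gh18. Libraries gh12 and gh18 lay below all *Robo1+/+* values, but gh06 lay among them. At -0.66, with a standard error of 0.33, its log2 fold change stayed below 0 under all 15 alternatives, from -0.97 without gh06 to -0.42 without gh12.

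*Il11ra1*, the chain particular to IL11, is kgCluster17008 on chromosome 4 from 41647021 to 41716347. The normalized read counts were 263, 315 and 259 in gh03, gh09 and gh15, and 338, 289 and 121 in gh06, gh12 and gh18. The lowest and the highest value both came from *Robo1-/-* libraries. In the fit its log2 fold change was -0.29 with a standard error of 0.42, 0.17 without gh18 and 0.45 after the GC correction, so its sign rested on gh18. After the correction all 3 *Robo1-/-* values were above the *Robo1+/+* values. Of the 75-base sequences in its longest coding transcript, 38.4% also occur in *Il11ra2* and 2 other copies, and its exons overlap *Ccl27a*. Its value is uncertain for both reasons.

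*Osmr* and *Il6st*, the OSM chain and gp130 itself, were abundant, and both overlapped between genotypes. *Osmr* (kgCluster8068, chromosome 15 from 6763577 to 6824313) had normalized read counts of 2716, 4343 and 4915 in gh03, gh09 and gh15, and 3509, 3709 and 5554 in gh06, gh12 and gh18. *Il6st* (kgCluster6764, chromosome 13 from 113265216 to 113297068) had 4319, 5399 and 4554, and 4728, 3756 and 5691, in the same order. In both genes gh18 held the highest value, and in *Osmr* gh03 held the lowest. The log2 fold changes were 0.11 with a standard error of 0.30 for *Osmr*, and -0.02 with a standard error of 0.23 for *Il6st*. After the GC correction they were -0.12 and -0.13, and without gh18 -0.10 and -0.17. The sign of *Osmr* turned under 4 of 15 alternatives, and that of *Il6st* under 2 of 15.

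Of the 8 fitted members, *Il11* was lower without overlap, where 4.58% of all 13692 fitted genes were lower without overlap. *Ctf1* and *Lifr* were higher without overlap, where 4.83% of all fitted genes were. After the GC correction the members without overlap were *Ctf1* and *Il11ra1*, both higher. *Ctf1* then had the largest difference, which rested on gh18. With the correction and gh18 left out, the log2 fold change was 0.23 for *Ctf1*, 0.25 for *Il11ra1* and -1.19 for *Il11*. The shares of all fitted genes are for the values as deposited, and no such share is given after the correction. The counts of members use the contrast that was in view when the family was chosen, and nothing is read from them. The median log2 fold change of the 8 was -0.01, against 0.00 over all fitted genes. It was 0.03 after the GC correction and 0.03 without gh18.

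**Figure D2:**
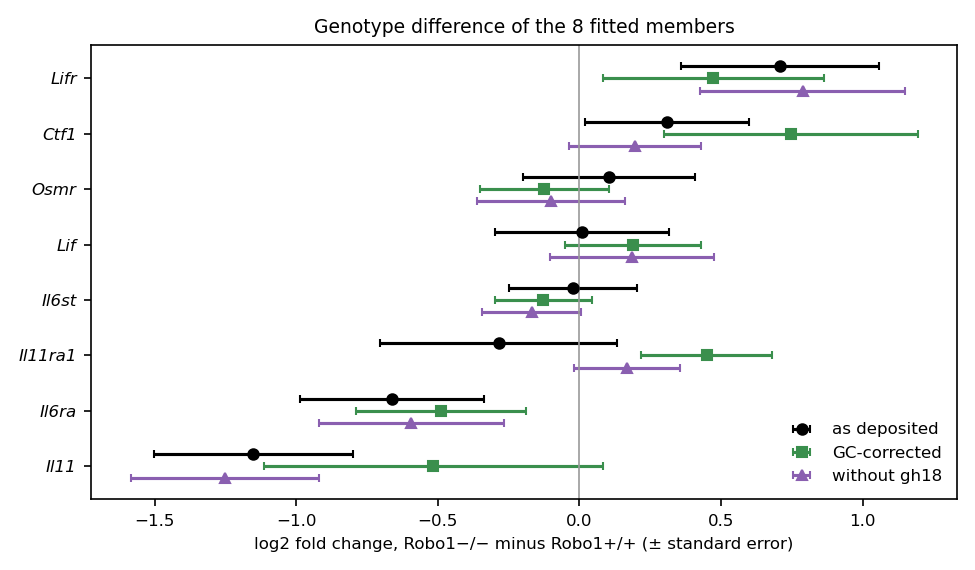
Log2 fold change of the 8 fitted members, *Robo1-/-* minus *Robo1+/+* (horizontal axis), with bars of 1 standard error: black circles for the values as deposited, green squares after the GC correction and purple triangles without library gh18. *Il11* and *Il6ra* stayed below 0 and *Lifr* and *Ctf1* above 0 in all 3 versions, while *Il11ra1* went from -0.29 to 0.45 after the correction.

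Levels can be compared between genes only per length. In normalized read count per kilobase of exon, as the median of 6 libraries, *Lif* stood at 2090, *Il6st* at 891, *Osmr* at 833, *Il6ra* at 216, *Lifr* at 129, *Ctf1* at 63.3, *Il11ra1* at 61.7, *Il11* at 17.7 and *Il6* at 2.25. *Lif* was above *Il6st* in 6 of 6 libraries and higher than 97.8% of the 12784 fitted genes with a length. *Il6st* and *Osmr* did not differ beyond their spread, since *Il6st* was the higher in only 3 of 6 libraries, and *Osmr* was above *Il6ra* in 6 of 6. *Il6ra* was above *Lifr* in 4 of 6 libraries, with ranges that overlapped. *Ctf1* was below *Lifr* in 6 of 6 libraries but level with *Il11ra1*, which it exceeded in 3 of 6. *Il11* was above *Il6* in 6 of 6 libraries. The place of *Il11ra1* depends on its gene model, which spans neighbouring genes: over the 2009 bases of its longest coding transcript its median was 137, beside 138 for *Lifr* over its own 9655.

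**Figure D3:**
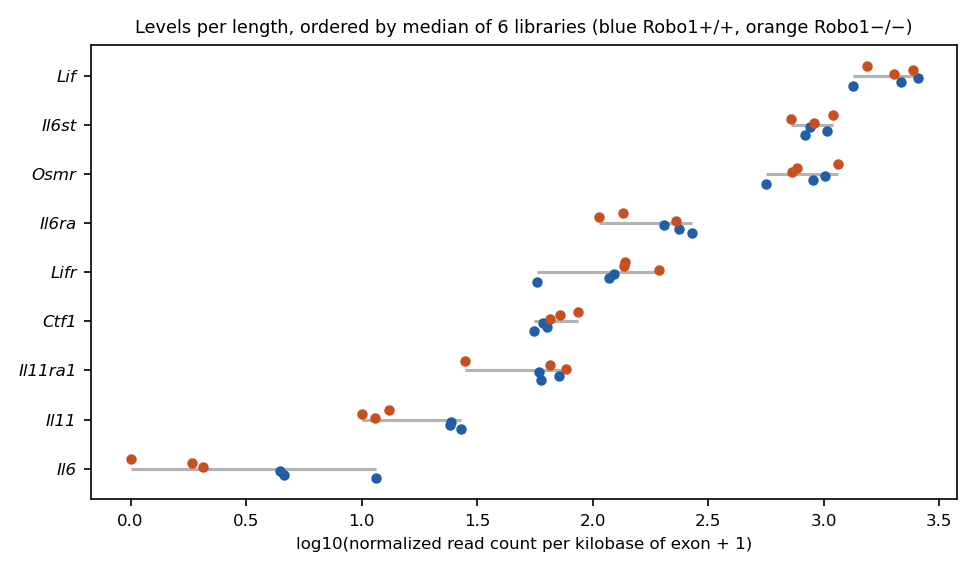
Level of each member per length, as log10(normalized read count per kilobase of exon + 1), in the 6 libraries (blue *Robo1+/+*, orange *Robo1-/-*, grey line from lowest to highest), ordered by the median. *Lif* lay above all receptors in the order, with a median of 2090 per kilobase, and *Il6* at the bottom with 2.25.

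Receptor proportions overlapped between genotypes. Ratios were taken between normalized read counts per kilobase of exon. The ratio of *Osmr* to *Il6st* averaged 0.90 ± 0.24 (SD, n = 3) across *Robo1+/+* libraries and 0.97 ± 0.15 (SD, n = 3) across *Robo1-/-* libraries. That of *Lifr* to *Il6st* averaged 0.11 ± 0.04 (SD, n = 3) against 0.17 ± 0.04 (SD, n = 3), with gh18 at 0.12 inside the *Robo1+/+* range of 0.07 to 0.14. That of *Il6ra* to *Il6st* averaged 0.26 ± 0.05 (SD, n = 3) against 0.17 ± 0.07 (SD, n = 3), with gh06 at 0.25 inside the *Robo1+/+* range. In all 5 such ratios that were computed, which include *Osmr* to *Lifr* and *Il11ra1* to *Il6st*, the genotypes overlapped.

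Members did not vary together as a group across the 6 libraries. Of the 28 pairs of fitted members, the highest correlation of log2 values was 0.73 for *Il11* and *Il6ra*, and the lowest was -0.79 for *Ctf1* and *Il6ra*. These are descriptions over 6 libraries of 2 genotypes that share depth and the GC trend of gh18. The genes most like *Il11* among 11486 were *Ccrl2* (Pearson's r of 0.99), *Supt7l* (0.98) and *4930427A07Rik* (0.97). *Ccrl2*, a receptor for the chemoattractant chemerin, had normalized read counts of 613, 594 and 589 in gh03, gh09 and gh15, and 387, 313 and 397 in gh06, gh12 and gh18. The genes most like *Il6st* among 11485 were *Large* (0.99), *Fdxacb1* (0.98) and *Arhgap21* (0.96). All of these are the highest of many correlations over only 6 libraries, where high values can arise without any link, and none was tested.

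Of 11 other cytokines and receptors of the family, 8 had a row and 3 were fitted, with the other 5 at or below 7.63 in every library. *Cntfr*, the receptor chain for CNTF, had normalized read counts of 183, 323 and 100 in gh03, gh09 and gh15, and 222, 49.5 and 21.9 in gh06, gh12 and gh18. *Clcf1*, a cytokine that binds the same chain, had 48.4, 118 and 161, and 81.7, 71.5 and 11.7. Both overlapped between genotypes and were lowest in gh18. Their log2 fold changes were -1.52 with a standard error of 0.86 and -1.22 with a standard error of 0.82, after the GC correction -0.68 and -0.85, and without gh18 -0.78 and -0.34. *Cntf* had a log2 fold change of -0.20 with a standard error of 0.59, and of -0.72 without gh18.

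The signaling machinery below the receptors was expressed throughout. Over all 13692 genes, limma called none at an adjusted p under 0.05 (0.00%), edgeR called none and DESeq2 called 1. At an unadjusted p under 0.05 limma gave 231 genes, edgeR 221 and DESeq2 304. Of the 231, 126 were lower in *Robo1-/-* (0.920% of the genes tested) and 105 higher (0.767%). Of 21 kinases, STATs, adaptors and inhibitors, all 21 were tested, none was called, 1 was lower at an unadjusted p under 0.05 and none was higher. Their median log2 fold change was -0.08, beside 0.00 for all genes.

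That gene was *Socs1*, an inhibitor of JAK kinases. It had normalized read counts of 22.9, 35.3 and 20.6 in gh03, gh09 and gh15, and 16.1, 4.58 and 5.84 in gh06, gh12 and gh18. The genotypes did not overlap, and the log2 fold change was -1.61 with a standard error of 0.55 (limma, adjusted p = 0.86). Its transcript has a GC content of 63.6%, and the log2 fold change was -0.48 after the GC correction and -1.44 without gh18. It was among the genes already known to be lower here when the lists were written.

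*Socs3*, the inhibitor that binds gp130 and itself responds to STAT3, was the most abundant of the inhibitors. It had normalized read counts of 2401, 3714 and 2030 in gh03, gh09 and gh15, and 4663, 2796 and 530 in gh06, gh12 and gh18. The *Robo1-/-* values spanned the *Robo1+/+* values on both sides, with gh18 lowest at a transcript GC content of 58.7%. The log2 fold change was -0.46 with a standard error of 0.76, and without gh18 it was 0.46.

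*Stat3* had normalized read counts of 12217, 12688 and 12218 in gh03, gh09 and gh15, and 10955, 11003 and 7982 in gh06, gh12 and gh18. All 3 *Robo1-/-* values lay below the *Robo1+/+* values. With a standard error of 0.21, the log2 fold change of -0.33 did not pass the test (limma, adjusted p = 0.86), and it was -0.17 without gh18. *Jak1*, the most abundant of the kinases, had a log2 fold change of 0.20 with a standard error of 0.21, and *Ptpn11*, the phosphatase that links gp130 to the RAS pathway, one of -0.08 with a standard error of 0.18.

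Of 22 genes known as STAT3 targets, 21 were tested, none was called, 2 were lower at an unadjusted p under 0.05 and none was higher. Over all genes 0.920% were lower and 0.767% higher at that limit. Without gh18, 3 targets were lower and 2 higher, and 579 of all 13692 genes passed in either direction. In the values as deposited, 2 targets were lower and 1 higher without overlap, beside 4.58% and 4.83% of all fitted genes. The median log2 fold change was -0.22 as deposited, 0.14 after the GC correction and 0.10 without gh18, so the sign of the list's median rested on that library. *Timp1*, an inhibitor of matrix proteases, had normalized read counts of 374, 280 and 308 in gh03, gh09 and gh15, and 201, 199 and 155 in gh06, gh12 and gh18. The genotypes did not overlap, and the log2 fold change was -0.79 with a standard error of 0.26 (limma, adjusted p = 0.86), and -0.67 without gh18.

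*Icam1*, an adhesion molecule for leukocytes, was the other gene. It had normalized read counts of 3509, 2242 and 3285 in gh03, gh09 and gh15, and 2143, 1291 and 1399 in gh06, gh12 and gh18. The *Robo1-/-* values were all lower, although gh06 came close to gh09. *Icam1* had a log2 fold change of -0.91 with a standard error of 0.29 (limma, adjusted p = 0.86), -0.49 after the GC correction and -0.83 without gh18.

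**Figure D4:**
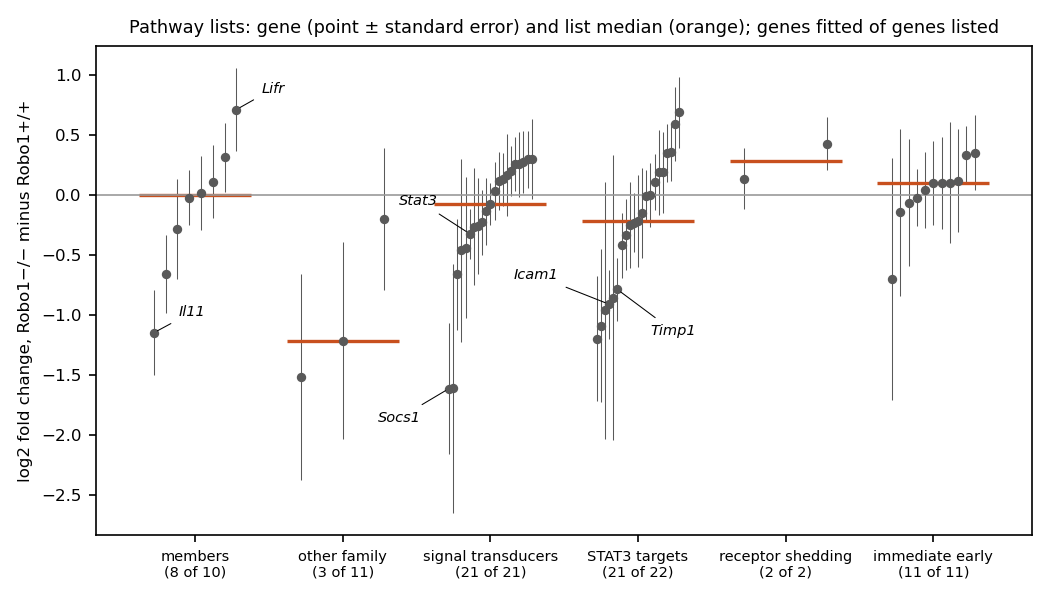
Log2 fold change, *Robo1-/-* minus *Robo1+/+* (vertical axis), of each fitted gene in the family and in 5 lists of related genes, with bars of 1 standard error and an orange line at each list's median. The medians were -0.01 for the members, -1.22 for the 3 other family genes, -0.08 for the signal transducers, -0.22 for the STAT3 targets, 0.28 for the 2 proteases and 0.09 for the immediate early genes.

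*Adam10* and *Adam17*, proteases that release receptors such as IL6RA from the cell surface, were both tested and neither passed at an unadjusted p under 0.05. Their log2 fold changes were 0.42 with a standard error of 0.22 and 0.13 with a standard error of 0.25. The immediate early genes, which include the *Fos* and *Jun* genes whose proteins form AP-1 and which respond to tissue dissociation, were highly expressed. The summed normalized read counts of the 11 genes were 75902 to 107240 in *Robo1+/+* and 58324 to 164178 in *Robo1-/-* libraries, with gh18 lowest and gh06 highest. In the values as deposited, none of the 11 passed at an unadjusted p under 0.05 with all libraries. At that limit 2 were higher after the GC correction, and 5 were higher without gh18. Of all 13692 genes, 231 passed it in either direction with all libraries and 579 without gh18. After the GC correction 197 of 12542 genes did. The part of the immediate early genes in the levels of *Lif*, *Il6* and *Il11* was not tested.

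**Figure D5:**
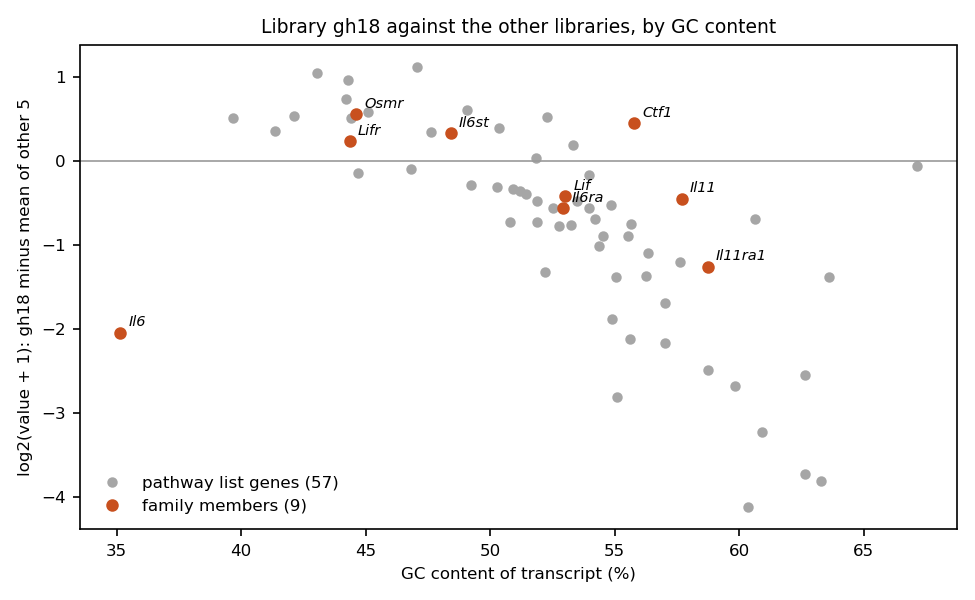
Log2(value + 1) in library gh18 minus the mean of the other 5 libraries (vertical axis) against the GC content of the transcript in percent (horizontal axis), for the 9 measured members in orange and the genes of the related lists in grey. Genes high in GC were mostly low in gh18, while *Il11*, at 57.7% GC, lay at -0.45 and *Il11ra1*, at 58.7%, at -1.26.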

How the data were processed

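The authors deposited normalized read counts (a signal, not raw counts) for each known-gene cluster, scaled by a single size factor in each library. Per the study's methods and the submitters' processing notes, reads were trimmed to 75 bases, filtered against repeats with Bowtie, mapped by TopHat to mm9, and DESeq2 gave the normalization. The counting tool and its use of strand are not given in the sources used here. Whole reads were recovered from the value of 1 read in each library: 100% of values were whole within 0.1 read.

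Values were analysed as log2(value + 1) with limma 3.58.1 (trend, Benjamini-Hochberg adjustment) in R 4.3.3, for the 13692 clusters kept by filterByExpr of edgeR 4.0.16 on the recovered reads. A fold change on this scale understates that of low genes. edgeR and DESeq2 1.42.0 on the recovered reads, TMM scaling, pseudocounts of 0.5 and 5, other filters, each library left out and a GC correction were alternatives. The correction subtracted a lowess curve (span 0.3) of each library's deviations on transcript GC content. It was also run without gh18, an alternative chosen after seeing the data. On simulated data for 13692 genes, limma called 121 of 200 genes changed by a log2 fold change of 2, with 5 false calls. The changed genes were drawn from those with a mean of at least 50, and no GC trend was put in. The result therefore does not cover genes as low as *Il11*, smaller changes or the trend of gh18.

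Positions, lengths and GC content came from GENCODE M1 on mm9, which matched 89.1% of clusters. The members and all lists were chosen with earlier results of these data known. Other genes were named by a rule: those of each list other than the cell type markers with an unadjusted p under 0.05 (at most 4), the signal transducer of each role with the highest mean normalized read count (not per length), and the 3 genes most correlated with *Il11* and with *Il6st* among genes with a mean of at least 50. *Cntfr*, *Clcf1*, *Cntf*, *Adam10* and *Adam17* are all the fitted genes of short lists, and cell type markers were named after their values were seen.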

Additional observations from a re-analysis of the deposited data

How the results depend on the processing

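The members' log2 fold changes were recomputed under 15 alternatives. *Il11*, *Il6ra*, *Ctf1* and *Lifr* kept their sign under all 15, and *Lif* changed it under 5, *Osmr* under 4, *Il11ra1* under 3 and *Il6st* under 2. The correction for GC content took *Il11* from -1.15 to -0.52, and a pseudocount of 5 took it to -0.97. No gene was called at an adjusted p under 0.05 by limma, and DESeq2 called 1. At an unadjusted p under 0.05 and at least a 2-fold change, 75 genes were lower and 40 higher in *Robo1-/-*. After the GC correction 24 were lower, with all genes of at least 1 read 192 were lower and 112 higher, and with the GC correction and gh18 left out 74 were higher. Leaving out 1 library gave 42 (without gh15) to 566 (without gh06) lower and 20 (without gh12) to 78 (without gh18) higher. Of the related lists other than the immediate early genes, which are not in these counts, 3 genes were lower and 0 higher at an unadjusted p under 0.05. Over all 13692 genes, 231 passed that limit in either direction with all libraries, 879 without gh06 and 579 without gh18. Leaving out 1 library gave 1 (without gh03, gh15 or gh12) to 8 (without gh06) lower and 0 to 3 (without gh18) higher, and the GC correction with gh18 left out gave 4 higher. The cause of these changes was not tested. No paired analysis was possible because the labels call the genotypes littermates without saying which libraries share a litter, and give no shared replicate numbers. Depth limits *Il6* most, with 20 reads over all libraries, and *Il11*, with 11 to 39 reads per library.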
